A study of Mus musculus with 10 samples.

Results

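The Zfp900-series zinc finger genes are the mouse genes named Zfp with a number of 3 digits that begins with 9. The table of 24370 genes held 32 of them, and 31 had a level of at least 0.5 TPM (reads divided by gene length and scaled to a fixed total per library) in at least 2 of the 10 libraries. These 31 are described here, among 14706 genes that passed the same filter. The remaining gene, Zfp957, was listed at 0 in all 10 libraries. The libraries came from mouse embryonic stem cells (ESCs), cultured cells derived from the inner cell mass, in 5 groups of 2. Usp17le OE cells were transfected with a plasmid for Usp17le, a deubiquitinase gene, and selected with puromycin. Dux KD cells received a hairpin that targets the messenger RNA of Dux, whose product is a transcription factor of the 2-cell embryo, and went through the same selection. Usp17le OE-Dux KD cells were Usp17le OE cells that then received the hairpin, Dux KD-Usp17le OE cells were Dux KD cells that then received the plasmid, and WT cells were untransfected. All labels name the J1 line, whereas the methods of the study name E3 cells for overexpression, and E3 cells were grown on feeder fibroblasts. Cells with an empty plasmid or with a control hairpin were not analysed here, so against WT neither manipulation can be told apart from transfection and selection. No label states that both libraries of a group came from separate cultures, and each p measures the spread between libraries, which may be technical.

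Many genes of this series encode Krüppel-associated box (KRAB) zinc finger proteins. In these proteins an array of C2H2 fingers, each a small fold around a zinc ion, reads a DNA sequence, and the KRAB domain recruits the corepressor TRIM28, which brings the histone methyltransferase SETDB1 and heterochromatin proteins to the bound site. The family is known in ESCs for silencing endogenous retroviruses and for keeping methylation at imprinted genes. Zfp932 is the series member with the best known role of this kind: with its paralog Gm15446 it represses endogenous retroviruses in mouse ESCs. The study asked whether Usp17le turns on genes of the 2-cell embryo (2C genes) through Dux, and the comparisons below ask how the series behaved under each manipulation.

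All 31 genes were protein-coding in the RefSeq gene table (GRCm38.p6), 10 of them on chromosome 17, 5 on chromosome 7, 5 on chromosome 8 and 3 on chromosome 13. A coding sequence could be read for 30 from the GENCODE annotation. In its translation 29 held at least 1 C2H2 finger, with a median of 11 and at most 18 (Zfp945). A KRAB A-box pattern was matched in 27 of the 30, and in 18 under a stricter first pattern that was loosened after it had missed Zfp932, so this count depends on the pattern. Reads that map to several places were dropped by the authors, which bears on near-identical genes. In 11 members more than 10% of the 50-base windows of the longest transcript also occurred in genes elsewhere, and the levels of these are uncertain. The highest shares were in Zfp960 (82.7%, chiefly Zfp97), Zfp932 (45.2%, chiefly Gm15446) and Zfp934 (40.1%, chiefly Zfp808). Each share covers all such genes, and the gene named holds more of the windows than any other. In 12 members the share was under 1%. The exons of Zfp961 overlapped Cyp4f18, and those of Zfp943 overlapped Gm9772, on the opposite strand, and the counting ignored strand. On the same strand, Zfp934 and Zfp935 overlapped each other, and Zfp941, Zfp953, Zfp956 and Zfp963 overlapped other genes. In all of these, reads from the overlaps may be left out of the levels.

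RefSeq promoter sequences were matched for 28 of the 31 genes, all but Zfp930, Zfp934 and Zfp960. The 250 bases upstream of the first listed start site are printed for Zfp936, with the largest change, for Zfp961, with the highest level, and for Zfp958 and Zfp932, which share a stretch of sequence. The start sites used for Zfp936, Zfp961 and Zfp932 lie inside the spans of the genes, for Zfp961 and Zfp932 close to the start. Build GRCm38.p6 was used, the sequence runs 5′ to 3′ along the gene's strand, and capitals mark CCAAT and CTTGAGTGAC on either strand.
Zfp936, chr7:43177340-43177589, plus strand: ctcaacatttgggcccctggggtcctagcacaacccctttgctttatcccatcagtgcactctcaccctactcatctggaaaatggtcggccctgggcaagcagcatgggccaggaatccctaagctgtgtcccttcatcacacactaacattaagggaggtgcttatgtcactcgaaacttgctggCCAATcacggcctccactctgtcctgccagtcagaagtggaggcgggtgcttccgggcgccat
Zfp961, chr8:71950816-71951065, plus strand: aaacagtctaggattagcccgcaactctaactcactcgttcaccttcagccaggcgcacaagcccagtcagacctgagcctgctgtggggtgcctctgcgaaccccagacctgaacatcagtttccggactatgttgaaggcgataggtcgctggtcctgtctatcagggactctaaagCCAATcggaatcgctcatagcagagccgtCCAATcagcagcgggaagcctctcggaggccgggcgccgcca
Zfp958, chr8:4612920-4613169, plus strand: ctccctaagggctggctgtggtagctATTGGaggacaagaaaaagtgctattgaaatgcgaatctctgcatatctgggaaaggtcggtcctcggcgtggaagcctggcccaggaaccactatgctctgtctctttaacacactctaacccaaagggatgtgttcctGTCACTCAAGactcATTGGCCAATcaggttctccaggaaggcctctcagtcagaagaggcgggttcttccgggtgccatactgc
Zfp932, chr5:109996260-109996509, plus strand: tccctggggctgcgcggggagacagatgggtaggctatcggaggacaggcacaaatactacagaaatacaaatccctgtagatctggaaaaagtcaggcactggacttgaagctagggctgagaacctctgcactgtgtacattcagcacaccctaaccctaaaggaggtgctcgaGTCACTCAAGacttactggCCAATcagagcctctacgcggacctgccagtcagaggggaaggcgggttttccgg
The Zscan4 motif TGCACAC, searched on both strands, was in 0 of 28 promoters of the series, against 3.49% of 27025 RefSeq promoters, which says only that these letters are not in these windows. CCAAT, the letters of a common promoter element, was in 19 of 28 (67.9%), against 34.5% of all. CTTGAGTGAC was in 5 of 28 (17.9%; Zfp931, Zfp932, Zfp937, Zfp938 and Zfp958), against 0.274% of all. CCAAT and CTTGAGTGAC were chosen after the promoters of the series had been read. Of all sequences of 10 bases, CTAGCCAATC, which holds CCAAT, was tied with an overlapping one for the most promoters (6 of 28). Of those without CCAAT, CTTGAGTGAC was tied with another at 5 and is shown because it was the rarer among all promoters. These shares are a description with no test. The counts of TGCACAC, of CCAAT and of CTTGAGTGAC in the series were the same over 300 bases that include the start of the transcript. The neighbours Zfp942 and Zfp943 run head to head with 55 bases between them, which hold 6 CpG dinucleotides.
Zfp942 to Zfp943, chr17:21962504-21962558, plus strand: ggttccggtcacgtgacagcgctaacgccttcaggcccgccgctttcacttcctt

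Reads recovered from the table numbered 32188285 to 50457228 per library. Members had 8 to 7144 reads in a library, with a median of 300.5, and 30 of 31 were at 0.5 TPM or more in every library. ESC markers (Pou5f1, Sox2, Nanog and 5 others) were detected in every group. Usp17le itself was at 28.7 and 35.6 TPM in Usp17le OE, 0.466 and 0.424 TPM in Dux KD, 11.1 and 10.6 TPM for Usp17le OE-Dux KD, and 1.77 and 0.649 TPM in WT. It was at only 0.941 and 1.63 TPM (44 and 56 reads) in libraries labelled Dux KD-Usp17le OE. That is above Dux KD (17 and 20 reads) but within the range of WT. By uniquely mapped reads these libraries therefore do not show, against WT, the overexpression in their label. Per the study, stretches of coding sequence are identical among the Usp17l genes, so reads of Usp17le may be missed in every group. Plasmid and endogenous transcripts were not told apart. Dux had 4 and 0 reads in Dux KD, against 5 and 12 in WT, and 15 and 16 in Usp17le OE-Dux KD, against 80 and 75 in Usp17le OE. Per the study, Dux lies in tandem repeats, so uniquely mapped reads may miss much of it. With so few reads in WT, these counts cannot show how far Dux fell in Dux KD. TPM adds up to a fixed total, and a typical gene was not level between groups. Its log2 change was 0.26 in Usp17le OE against WT and ran from -0.23 to 0.56 in the other comparisons of groups. Genes under 1000 bases took 43.0 to 43.2% of TPM in WT and 39.5 to 42.4% in Usp17le OE. In Dux KD they took 28.5 to 31.3%. What moved the typical gene was not tested. Members are therefore counted on the deposited values and again once every library had been divided by the median ratio of its genes (called scaling below). In bulk RNA, more cells of a type and more RNA per cell cannot be told apart.

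Levels within the series spanned a wide range. The mean over the 10 libraries ran from 1.30 to 62.7 TPM, with a median of 4.71 TPM. The 5 highest were Zfp961, Zfp958, Zfp930, Zfp951 and Zfp960. Zfp961 (chromosome 8, 71951048 to 71970333, with 11 fingers and a KRAB box pattern) had 124 and 133 TPM in Usp17le OE, 44.9 and 48.3 TPM in Dux KD, 75.3 and 73.8 TPM for Usp17le OE-Dux KD, 39.9 and 40.1 TPM in libraries labelled Dux KD-Usp17le OE, and 23.9 and 23.99 TPM in WT. No 2 groups overlapped in Zfp961, and from high to low their order was Usp17le OE, then Usp17le OE-Dux KD, then Dux KD, then Dux KD-Usp17le OE, then WT. The lowest mean was that of Zfp964 (chromosome 8, 69654463 to 69667132), close to Zfp963 on that chromosome. Of its windows 2.73% also occurred in other genes, more of them in Zfp963 than in any other. Zfp964 had 3.79 and 2.44 TPM in Usp17le OE, 0.624 and 1.24 TPM in Dux KD, 1.52 and 1.58 TPM for Usp17le OE-Dux KD, 0.533 and 0.758 TPM in libraries labelled Dux KD-Usp17le OE, and 0.220 and 0.251 TPM in WT. For the whole series, the summed level was 479 and 510.2 TPM in Usp17le OE, 217 and 229.7 TPM in Dux KD, 292 and 279 TPM for Usp17le OE-Dux KD, 216 and 216 TPM in libraries labelled Dux KD-Usp17le OE, and 181 and 187 TPM in WT. The mean was highest in Usp17le OE for 27 of 31 members (of all genes, 27.5%) and lowest in WT for 18 (of all genes, 45.8%). Both Usp17le OE libraries lay above the other 8 in 25 of 31 members, against 19.6% of all genes that passed the filter. Both WT libraries lay below the other 8 in 12 of 31, against 35.1% of all genes, a share of the series (38.7%) close to that background. Both Dux KD libraries lay below the other 8 in 3 members, Zfp931, Zfp932 and Zfp938, against 4% of all genes. In 23 of 31 members the mean of Usp17le OE-Dux KD fell between those of Usp17le OE and WT. The share of all genes with this order was not counted, so it cannot be called particular to the series.

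**Figure D1:**
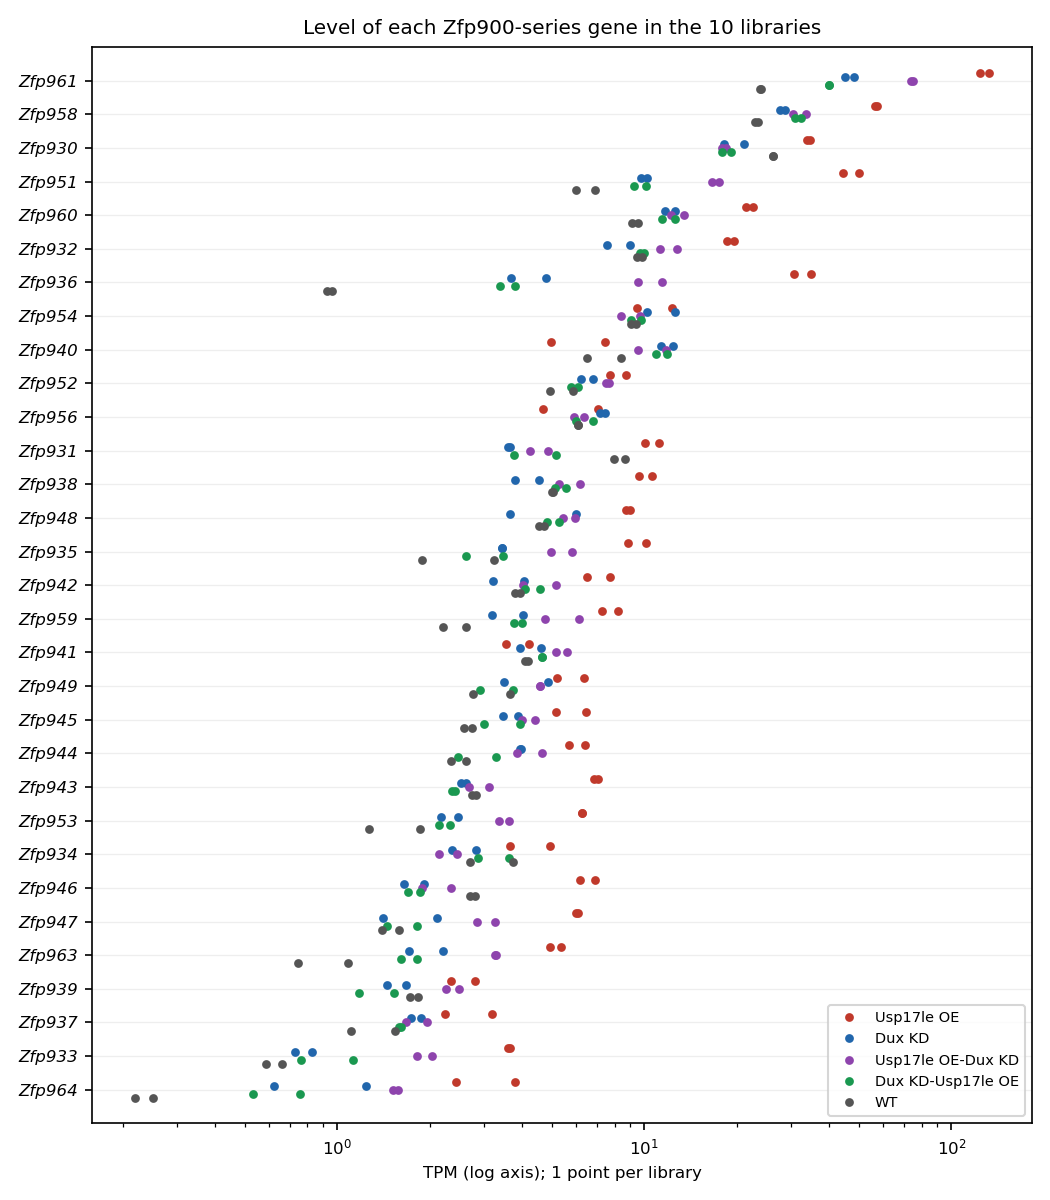
TPM of each of the 31 genes (rows, ordered by mean level) on a log axis, with 1 point per library and a colour per group. In 25 of 31 rows both Usp17le OE points lie to the right of the other 8.

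Markers of other states differed between the groups to unlike degrees. The 9 markers of 2-cell-like cells (4 Zscan4 genes, Tcstv1, Tcstv3, Usp17lc, Gm5662 and Tmem92) summed to 526 and 557 TPM in Usp17le OE, 4.88 and 4.86 TPM in Dux KD, 70.8 and 73.5 TPM for Usp17le OE-Dux KD, 16.2 and 16.5 TPM in libraries labelled Dux KD-Usp17le OE, and 27.9 and 27.1 TPM in WT. Tcstv1 was at 0 in Dux KD and in libraries labelled Dux KD-Usp17le OE. Against Dux KD, 6 of the 9 markers were called higher in libraries labelled Dux KD-Usp17le OE and 0 lower, against 2.88% of all genes higher. The markers were highest in Usp17le OE, as were 27 of 31 members, and they were lowest in Dux KD. Their part in the changes of the series, here and below, was not tested. The 7 fibroblast markers summed to 14.7 and 13.03 TPM in Usp17le OE, 18.7 and 17.7 TPM in Dux KD, 27.2 and 26.7 TPM for Usp17le OE-Dux KD, 19.9 and 18.7 TPM in libraries labelled Dux KD-Usp17le OE, and 16.03 and 15.1 TPM in WT. Most of each sum was Thy1, with 12.99 and 11.3 TPM in Usp17le OE, against 14.1 and 13.7 TPM in WT. In that comparison Col1a2 was higher (1.85) and Col1a1 lower (-0.77), and Dcn and Lum were at 0 in 8 libraries each. The 5 primitive endoderm markers summed to 9.03 and 9.09 TPM in Usp17le OE, 3.87 and 4.71 TPM in Dux KD, 11.2 and 10.3 TPM for Usp17le OE-Dux KD, 3.44 and 3.93 TPM in libraries labelled Dux KD-Usp17le OE, and 3.90 and 3.49 TPM in WT. The 3 neuroectoderm markers summed to 5.80 and 4.92 TPM in Usp17le OE, 13.1 and 14.6 TPM in Dux KD, 11.7 and 10.04 TPM for Usp17le OE-Dux KD, 13.6 and 11.5 TPM in libraries labelled Dux KD-Usp17le OE, and 8.66 and 8.77 TPM in WT. In Usp17le OE against WT, Sox1 (-1.83) and Pax6 (-1.23) were lower and Nes (0.02) was not called. The 3 mesendoderm markers differed less in their sum, with 5.82 and 5.53 TPM in Usp17le OE and 5.29 and 5.02 TPM in Dux KD. They summed to 6.17 and 8.73 TPM for Usp17le OE-Dux KD and 4.36 and 4.63 TPM in WT. In libraries labelled Dux KD-Usp17le OE they summed to 4.17 and 5.12 TPM.

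The first comparison asked how the series responds to Usp17le overexpression. In Usp17le OE against WT, 25 of 31 members were called higher (80.6%) and 0 lower, against 45.5% of all genes higher and 20.9% lower. The median change of the series was 1.09 on the log2(TPM + 0.1) scale, against 0.26 for all genes. After scaling, 23 were higher and 2 lower, against 33% of all genes in each direction. Zfp936 (chromosome 7, 43114166 to 43192109), which encodes 11 fingers and a KRAB box and has 15.2% of its windows in common with other genes, had 30.7 and 34.98 TPM in Usp17le OE, against 0.924 and 0.958 TPM in WT. Its log2 change of 4.98 ± 0.15 (SE) was the largest of the series, with a limma adjusted p of 8.65e-11. Zfp964 rose by 3.23, with 3.79 and 2.44 TPM in Usp17le OE and 0.220 and 0.251 in WT, and its neighbour Zfp963 by 2.39, with 4.94 and 5.34 TPM in Usp17le OE and 1.08 and 0.744 in WT. Both are short of reads in WT, where Zfp964 stays under 0.5 TPM, and the pseudocount of 0.1 lowers their change. Zfp951 (10 fingers, on chromosome 5) rose by 2.86 ± 0.10, with 44.2 and 50.2 TPM in Usp17le OE, against 5.97 and 6.90 in WT. Zfp961 rose by 2.42 ± 0.06, the smallest error in the series. The next largest changes were in Zfp933 (2.37), Zfp953 (1.97), Zfp947 (1.94), Zfp935 (1.89) and Zfp959 (1.64). In each of these the lower Usp17le OE library was above the higher WT library, for instance at 6.28 and 6.29 TPM in Usp17le OE and 1.27 and 1.86 TPM in WT for Zfp953. The levels of Zfp935, Zfp947 and Zfp959 are uncertain, as 20.9%, 20.05% and 21.3% of their windows also occurred in other genes.

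Zfp958 and Zfp960, with high levels in every group, rose less: Zfp958 had 56.6 and 57.2 TPM in Usp17le OE, against 22.9 and 23.4 in WT (log2 change 1.29 ± 0.07), and Zfp960 had 21.4 and 22.7 TPM in Usp17le OE, against 9.54 and 9.15 in WT (1.23 ± 0.09). The retrovirus repressor Zfp932 had 18.7 and 19.6 TPM in Usp17le OE, against 9.49 and 9.86 in WT, a change of 0.98 ± 0.11. Its paralog Gm15446 was not called, with a change of 0.60 (limma adjusted p = 0.0518). The shares of windows that Zfp932 and Zfp960 have in common with other genes, given above, bear on both. Of the head-to-head pair, Zfp942 changed by 0.86 and Zfp943 by 1.29, both called. The other 10 members called ran from 0.38 (Zfp930, at 34.00 and 34.5 TPM in Usp17le OE and 26.3 and 26.2 TPM in WT) to 1.25 (Zfp944). Zfp930 and Zfp939 were not called after scaling. All 10 members on chromosome 17 were called higher, with changes of 0.61 (Zfp952) to 1.94 (Zfp947), and so were all 5 on chromosome 8, with 0.38 (Zfp930) to 3.23 (Zfp964). Of the 5 on chromosome 7, Zfp936 and Zfp939 were called. No test of a difference between chromosomes was run. The 6 members not called were Zfp931, Zfp934, Zfp940, Zfp941, Zfp954 and Zfp956. Zfp931 had 11.2 and 10.03 TPM in Usp17le OE and 8.67 and 7.96 in WT, with no overlap, and an adjusted p of 0.0639. Zfp940 had 4.96 and 7.45 TPM in Usp17le OE and 6.50 and 8.43 in WT, so its libraries overlapped, and it and Zfp941 were the members called lower after scaling.

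**Figure D2:**
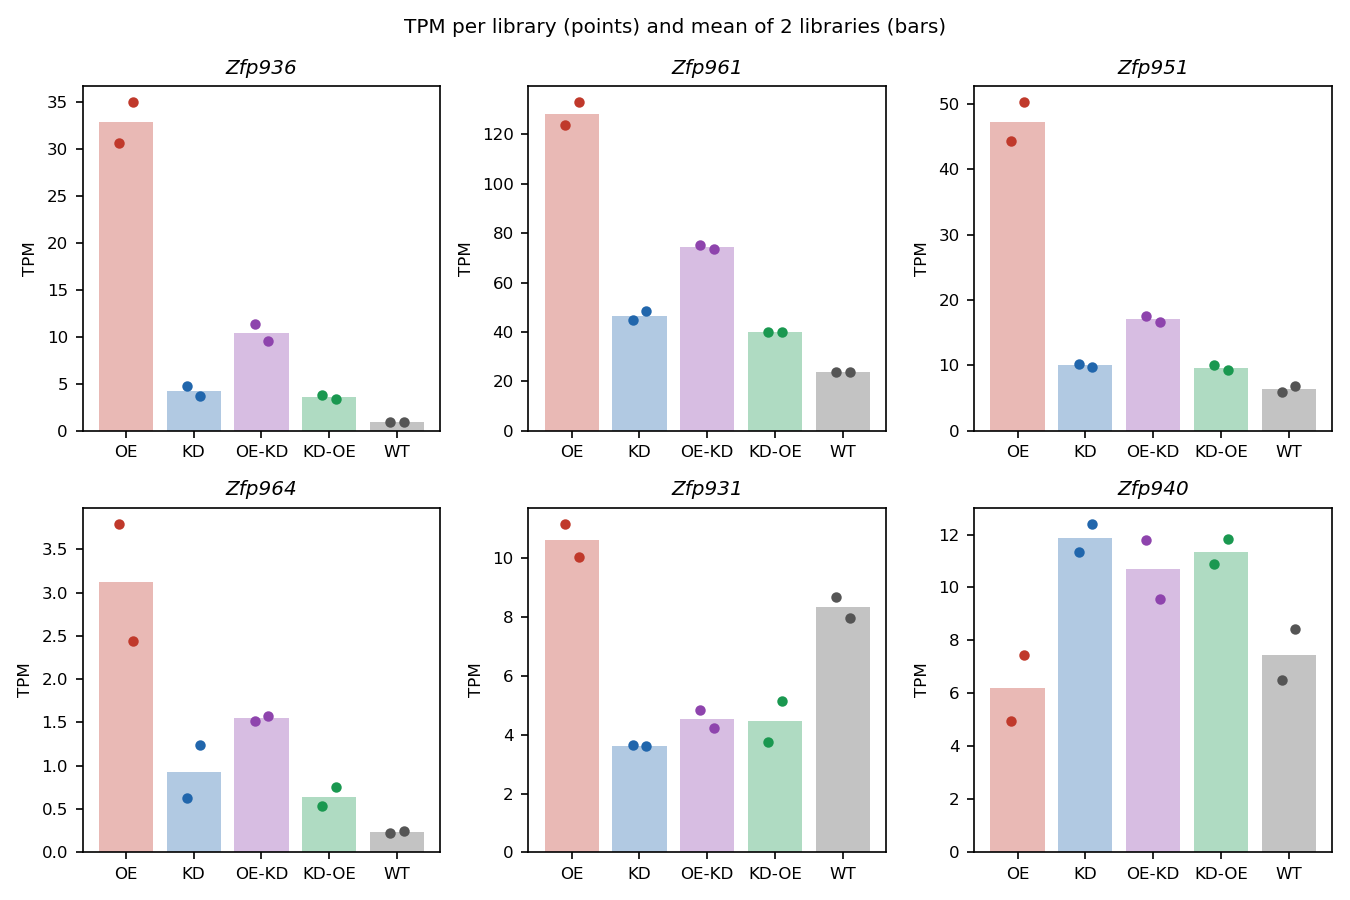
TPM in each library (points) and the mean of the 2 libraries (bars) for 6 genes, with the vertical axes from 0 and, from left to right, Usp17le OE (OE), then Dux KD (KD), then Usp17le OE-Dux KD (OE-KD), then Dux KD-Usp17le OE (KD-OE) and last WT. Zfp936, Zfp961, Zfp951 and Zfp964 are highest in Usp17le OE, Zfp931 is low in the 3 groups with the hairpin, and Zfp940 is high in those groups.

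With the Dux hairpin alone, members of the series moved in both directions. In Dux KD against WT, 12 of 31 members were called higher (38.7%) and 3 lower (9.68%), against 51.4% of all genes higher and 10.7% lower. After scaling, 5 were higher and 9 lower, against 28.8% of all genes higher and 25.3% lower, and the median of the series turned to -0.11, against 0.28 as deposited. With 1 library left out, 11 to 17 members were called. Zfp936 had 4.77 and 3.69 TPM in Dux KD, against 0.924 and 0.958 in WT, a log2 change of 2.04 ± 0.15 (adjusted p = 2.08e-07). Zfp964 had 0.624 and 1.24 TPM in Dux KD, against 0.220 and 0.251 in WT (1.56 ± 0.35), and Zfp963 had 1.72 and 2.22 TPM in Dux KD, against 1.08 and 0.744 in WT (1.04 ± 0.21). Zfp961 rose by 0.96 ± 0.06. These 4, with Zfp951 (0.63 ± 0.10), were also called higher after scaling. Zfp940 (0.67), Zfp944 (0.65) and Zfp953 (0.57) were called higher as deposited and not after scaling, and Zfp958 and Zfp960 turned to a negative change with it.

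The members that fell in Dux KD were Zfp931, Zfp930 and Zfp946, and they fell on both scales. Zfp931 (on chromosome 2, with 7 fingers and 16.7% of its windows shared) had 3.66 and 3.60 TPM in Dux KD, against 8.67 and 7.96 in WT, and fell by 1.17 on the log2 scale (SE 0.15, adjusted p = 2.34e-05). Zfp930 had 18.1 and 21.1 TPM in Dux KD, against 26.3 and 26.2 in WT (-0.43 ± 0.08). Zfp946 had 1.91 and 1.65 TPM in Dux KD, against 2.82 and 2.70 in WT (-0.61 ± 0.18). In all 3 the libraries of the groups stood apart.

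Most of the series was lower once Usp17le-overexpressing cells carried the Dux hairpin. Usp17le itself was also lower there, at 11.1 and 10.6 TPM in Usp17le OE-Dux KD, against 28.7 and 35.6 TPM in Usp17le OE, and its part in the change of the series was not tested. Comparing Usp17le OE-Dux KD with Usp17le OE, 23 of 31 members were called lower (74.2%) and 2 higher, against 18.6% of all genes lower and 45.7% higher. The median change was -0.77, against 0.29 for all genes. After scaling, 27 were lower and 1 higher, against 30.7% of all genes lower and 29.7% higher. Zfp936 had 11.4 and 9.55 TPM in Usp17le OE-Dux KD, against 30.7 and 34.98 in Usp17le OE, a change of -1.64 ± 0.15. Zfp946 had 1.89 and 2.35 TPM in Usp17le OE-Dux KD, against 6.18 and 6.90 in Usp17le OE (-1.59 ± 0.18), and Zfp951 had 17.6 and 16.7 TPM in Usp17le OE-Dux KD, against 44.2 and 50.2 in Usp17le OE (-1.46 ± 0.10). The libraries of the 2 groups did not overlap in these 3 genes. Zfp943 (-1.24), Zfp931 (-1.20), Zfp947 (-0.96), Zfp964 (-0.93), Zfp930 (-0.91), Zfp933 (-0.88) and Zfp934 (-0.86) were the other members among the 10 largest changes. Zfp940 and Zfp941 were called higher, at 11.8 and 9.55 TPM in Usp17le OE-Dux KD and 4.96 and 7.45 TPM in Usp17le OE for Zfp940, and Zfp941 was not called after scaling. Without replicate 2 of Usp17le OE-Dux KD, 18 members were called, 2 higher and 16 lower.

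Against WT, 19 of 31 members in Usp17le OE-Dux KD were called higher (61.3%) and 2 lower, Zfp930 and Zfp931, against 59.5% of all genes higher and 11% lower. After scaling the counts were 8 and 8, against 30.1% and 31.1% of all genes. Zfp936 was still 3.34 above WT on the log2 scale, and Zfp964 2.30, Zfp963 1.75 and Zfp961 1.63, all called on both scales. In the reverse order, libraries labelled Dux KD-Usp17le OE against Dux KD gave 0 members higher and 1 lower, against 2.88% of all genes higher and 8.3% lower. At an unadjusted limma p under 0.05 there were 5 of 31, against 4231 of all 14706 genes. The member called was Zfp961, with 39.9 and 40.1 TPM in libraries labelled Dux KD-Usp17le OE, against 44.9 and 48.3 in Dux KD, and a change of -0.22 ± 0.06 (adjusted p = 0.0406). It was not called after scaling (adjusted p = 0.118), where Zfp958 was the only member called, higher, against 3.42% of all genes higher and 1.97% lower. Zfp936 had 3.78 and 3.38 TPM in libraries labelled Dux KD-Usp17le OE, against 4.77 and 3.69 in Dux KD, with overlapping ranges.

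Against WT, libraries labelled Dux KD-Usp17le OE had 10 members higher (32.3%) and 3 lower, the same 3 that fell in Dux KD, against 44.8% of all genes higher and 7.62% lower. After scaling 4 were higher and 5 lower, against 24% and 20.9% of all genes. Without replicate 1 of WT the total was 8. Set against Usp17le OE-Dux KD, the same libraries had 0 members higher and 14 lower (45.2%), against 7.97% of all genes higher and 37.4% lower. After scaling the counts were 3 and 6, against 23.6% and 15.7% of all genes. Without replicate 1 of Usp17le OE-Dux KD, or without replicate 1 of Dux KD-Usp17le OE, 6 members were called, and without replicate 2 of Dux KD-Usp17le OE 8. Zfp936 had the largest change, -1.52 ± 0.15, with 3.78 and 3.38 TPM in libraries labelled Dux KD-Usp17le OE, against 11.4 and 9.55 TPM in Usp17le OE-Dux KD.

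**Figure D3:**
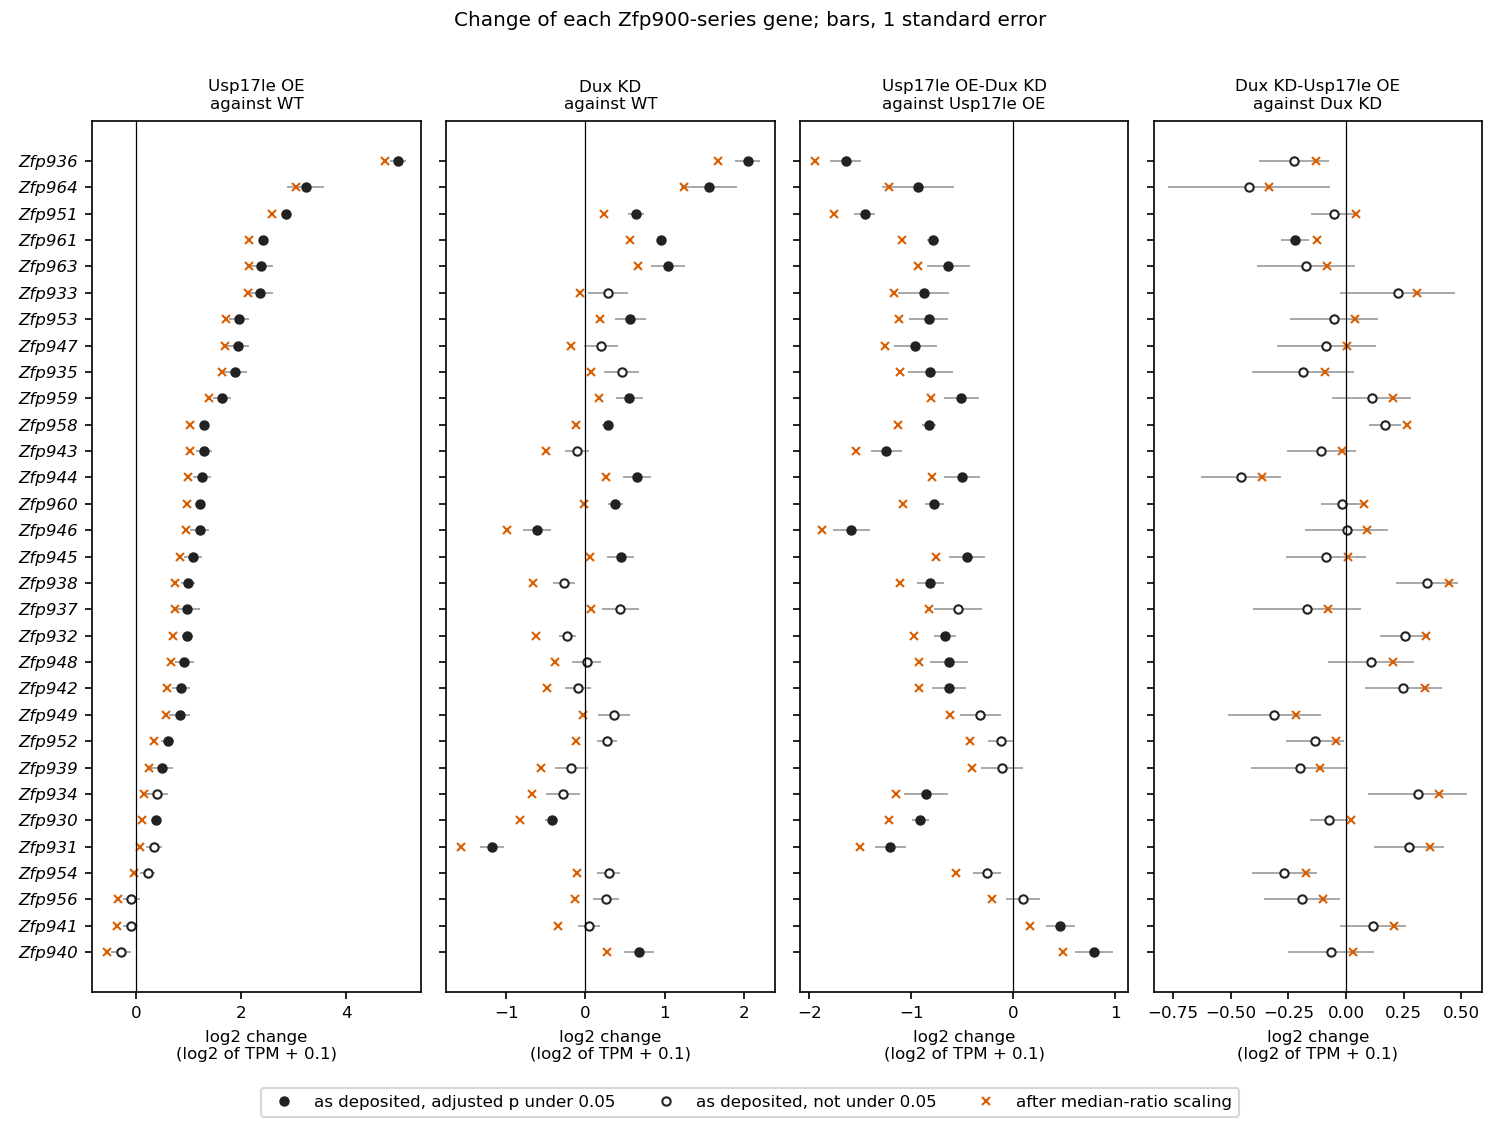
Log2 change of each gene in 4 comparisons, with circles for TPM as deposited (filled where the adjusted p was under 0.05), bars for 1 standard error and crosses for the value after scaling. The genes run from the largest change in Usp17le OE against WT at the top to the smallest at the bottom, and the horizontal axes differ between panels.

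The differences of effects asked whether the response to 1 manipulation depends on the other. The effect of the hairpin in Usp17le OE cells, minus its effect in untransfected cells, was below 0 and called in 21 of 31 members (67.7%) and above 0 in 0, against 28.2% of all genes below and 15.8% above. After scaling it was called below 0 in 18 and above 0 in 0, against 24.5% and 20.2% of all genes. Zfp936 differed by -3.69 ± 0.22, as it fell by 1.64 under the hairpin in Usp17le OE cells and rose by 2.04 under the hairpin alone. The lower Usp17le level of Usp17le OE-Dux KD goes with this difference as well. Zfp964 differed by -2.49 ± 0.50, Zfp951 by -2.09 ± 0.14, Zfp961 by -1.74 ± 0.09 and Zfp963 by -1.67 ± 0.30. Zfp931, in contrast, fell by 1.20 under the hairpin in Usp17le OE cells and by 1.17 under the hairpin alone, and the difference of -0.03 ± 0.22 was not called (adjusted p = 0.92). The effect of the plasmid in Dux KD cells, as measured in libraries labelled Dux KD-Usp17le OE, minus its effect in untransfected cells, was called below 0 in 24 members (77.4%) and above 0 in 0, against 42.7% of all genes below and 15.2% above. After scaling it was below 0 in 18 and above 0 in 1, against 27.8% and 28.6% of all genes. Zfp936 differed by -5.20 ± 0.22, Zfp964 by -3.65 ± 0.50, Zfp951 by -2.91 ± 0.14, Zfp961 by -2.64 ± 0.09 and Zfp963 by -2.56 ± 0.30. The level of Usp17le in those libraries, given above, goes with this difference, and its part in it was not tested. The 2 differences share the WT, Usp17le OE and Dux KD libraries.

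The rest of the Zfp genes, 278 with a number outside the series, gave a comparison. With Usp17le OE set against WT, 189 (68%) came out higher and 16 lower, with a median change of 0.85. In Dux KD against WT 197 (70.9%) were higher and 2 lower, with a median of 0.68. After scaling these were 166 and 38 in Usp17le OE (median 0.61), and 122 and 27 in Dux KD (median 0.29). The share of members called higher in Dux KD was 38.7% as deposited. Comparing Usp17le OE-Dux KD with Usp17le OE, 87 were higher and 65 lower (23.4%), with a median of 0.09, beside 2 higher and 23 lower (74.2%) in the series. After scaling the balance of these genes turned, with 45 higher and 105 lower (37.9%) and a median of -0.21, beside 1 higher and 27 lower in the series. The difference of knockdown effects was called below 0 in 143 of them (51.4%) and above 0 in 14. After scaling these were 135 (48.7%) and 17. The difference of overexpression effects was called below 0 in 186 (66.9%) and above 0 in 10, beside 77.4% below in the series. After scaling these were 154 (55.6%) and 25, beside 58.1% below in the series. These shares are descriptions, and no test of the series against other genes was run. Of 11 KRAB zinc finger genes outside the series with described targets, 10 were higher in Usp17le OE against WT (all but Gm15446, median change 1.46) and 9 in Dux KD against WT (median 1.05). After scaling these counts were 10 and 7. The 3 largest in Usp17le OE against WT were Zfp809, which silences retroviruses, with 34.4 and 37.9 TPM in Usp17le OE, against 3.36 and 4.07 in WT, Zfp57, which protects methylation at imprinted genes (2.82), and Zfp617 (2.33). In Dux KD against WT they were Zfp819 (1.67), Zfp57 (1.53) and Zfp459 (1.48).

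The corepressor machinery that KRAB proteins use was measured by 22 genes. In Usp17le OE against WT 12 were higher (54.5%) and 4 lower (18.2%), with a median of 0.35, beside 45.5% and 20.9% of all genes with a median of 0.26, and the largest changes were in the chromatin remodellers Smarcad1 (1.58) and Atrx (1.07) and in Pphln1 (0.99), a subunit of the HUSH silencing complex. In Dux KD against WT 22 were higher (median 0.85), beside 51.4% of all genes (median 0.38), with Smarcad1 (1.29), the SETDB1 partner Atf7ip (1.27) and Atrx (1.12) at the top. After scaling, 11 were higher and 10 lower in Usp17le OE, and 17 higher and 1 lower in Dux KD, each against WT, beside 33% of all genes in each direction in Usp17le OE and 28.8% higher and 25.3% lower in Dux KD.

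**Figure D4:**
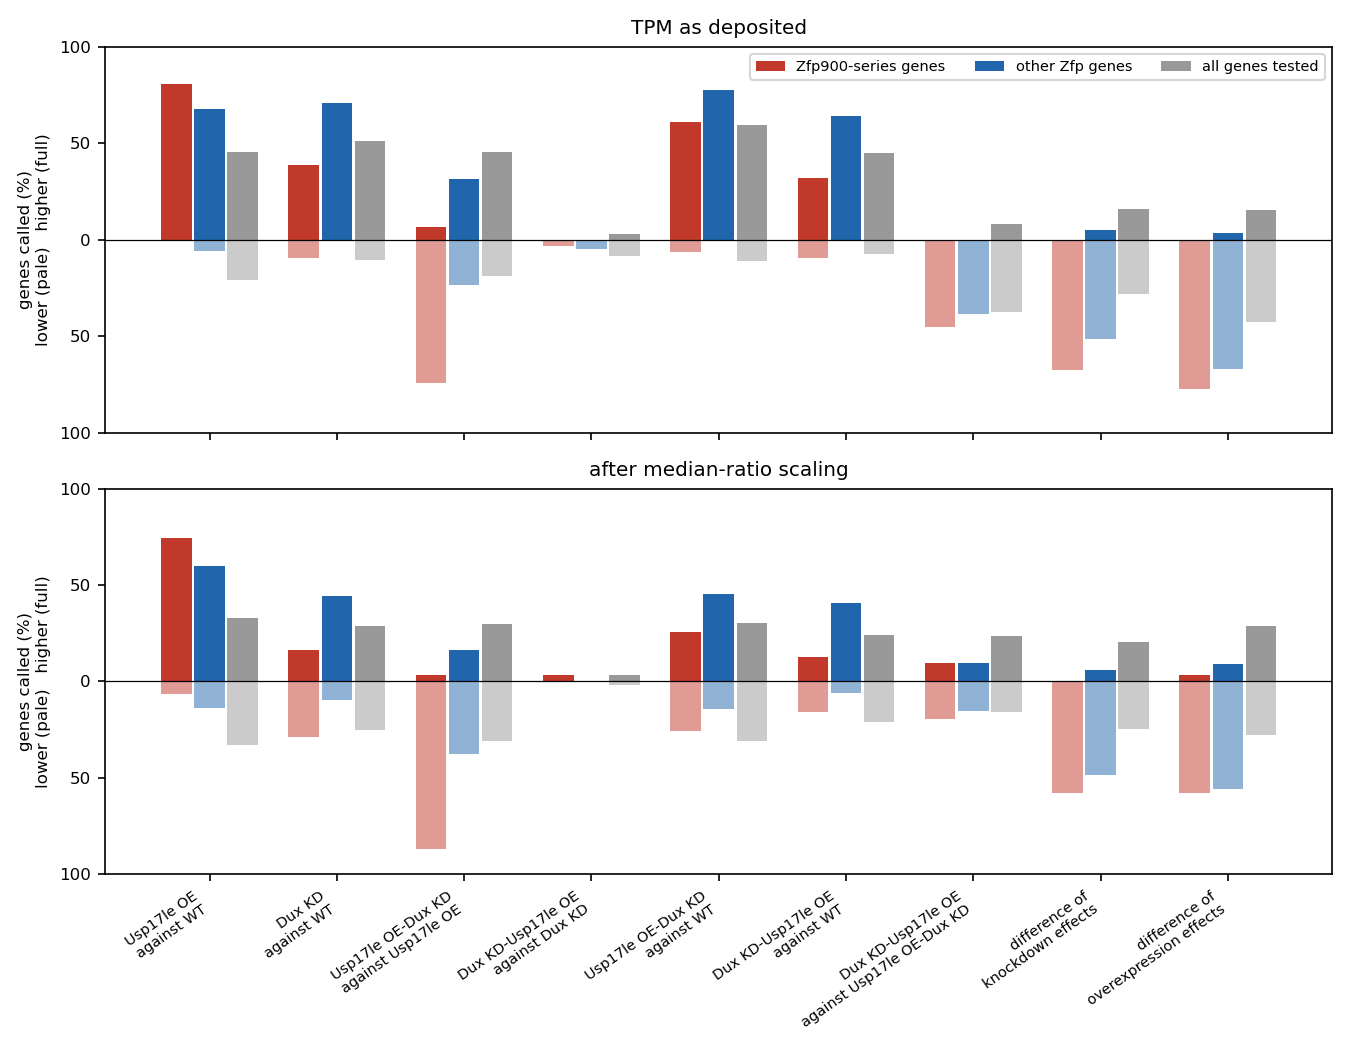
Percent of genes called higher (full colour, upwards) and lower (pale, downwards) in 9 comparisons, for the 31 members, the other Zfp genes and all genes tested, as deposited (top) and after scaling (bottom). Comparing Usp17le OE-Dux KD with Usp17le OE, 74.2% of members are called lower as deposited, against 18.6% of all genes.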

How the data were processed

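Polyadenylated RNA of 10 libraries was sequenced. Per the submitters' processing notes and the study's methods, the authors used Trim Galore on the reads, HISAT2 against mm10 and featureCounts on uniquely mapped reads, and deposited TPM values and gene lengths in 1 table. Versions and the annotation release are not given in the sources used here. The authors named DESeq2 for their own comparisons. Reads were recovered as TPM times length, whole within 0.01 in 100% of values.

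Values were tested as log2(TPM + 0.1) in limma 3.58.1 under R 4.3.3 (robust option from statmod 1.5.0). The model had a mean for each group and 5 residual degrees of freedom, with the trend and robust options, two-sided tests and Benjamini-Hochberg adjustment over the 14706 genes that reached 0.5 TPM in 2 or more libraries (14659 after scaling). A gene was called at an adjusted p under 0.05. The scripts were tested on simulated data, where the share of called genes that had not been changed was above the 5% that the adjustment aims at, so calls near the threshold may hold more false ones than it states. Groups were compared in 7 pairs, and effects in 2 differences.

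Members and gene lists were chosen with earlier results of these data known. Named members are the 10 with the largest called change in each of the first 4 comparisons, 5 in each difference of effects, the 5 with the highest mean level, and Zfp932. Zfp937 to Zfp939, Zfp941, Zfp942, Zfp945, Zfp952, Zfp954 and Zfp956, and the genes sharing sequence, were named after their values were seen. Fingers (CxxC, 12 residues, H, 3 to 5 residues, H) and the KRAB pattern were counted in translations of GENCODE M21 coding sequences. Alternatives were another pseudocount, filter, scaling, gene-length centring, a replicate block, only the compared groups, no trend or robust option, each library left out and, chosen after seeing the data, limma-voom on the recovered reads and a fit without the Dux KD-Usp17le OE libraries.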

Additional observations from a re-analysis of the deposited data

Results flagged for a closer look

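Both differences of effects were called in many members, by the test of the difference itself. The effect of the Dux hairpin in Usp17le OE cells minus its effect in untransfected cells was called in 21 of 31 members, all below 0, against 28.2% of all genes called below 0, and in 18 after scaling. It was largest in Zfp936 (-3.69 on the log2 scale), Zfp964 (-2.49), Zfp951 (-2.09), Zfp961 (-1.74) and Zfp963 (-1.67). The effect of the Usp17le plasmid in Dux KD cells minus its effect in untransfected cells was called in 24 of 31 members, all below 0, against 42.7% of all genes called below 0. After scaling 18 were below and 1 above. The changes of Zfp936 (-5.20), Zfp964 (-3.65), Zfp951 (-2.91), Zfp961 (-2.64) and Zfp963 (-2.56) were again the largest. Among the other Zfp genes, the first difference was called below 0 in 51.4% (48.7% after scaling). The second was called below 0 in 66.9% of them (55.6% after scaling), so neither pattern is particular to the series. The second difference rests on libraries labelled Dux KD-Usp17le OE, whose Usp17le level is above Dux KD but within the range of WT. Against Dux KD the median change of the series in these libraries was -0.07, beside 1.09 in Usp17le OE against WT. The second difference therefore largely repeats the latter change with its sign reversed, and is not a separate observation from it. In the first difference, Usp17le was also lower in Usp17le OE-Dux KD than in Usp17le OE. The part of Dux in either difference was not tested. Groups of 2 libraries were too small to look for libraries that stand apart.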

How the results depend on the processing

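In Usp17le OE relative to WT the number of members called was 24 to 27 under every library left out, and 25 after scaling (23 higher, 2 lower). The ranges with 1 library left out were 11 to 17 in Dux KD relative to WT, 18 to 25 in Usp17le OE-Dux KD relative to Usp17le OE, 0 to 1 in Dux KD-Usp17le OE relative to Dux KD, 17 to 22 in Usp17le OE-Dux KD relative to WT, 8 to 13 in Dux KD-Usp17le OE relative to WT, 6 to 14 in Dux KD-Usp17le OE relative to Usp17le OE-Dux KD, and 16 to 21 and 22 to 25 in the differences of the knockdown and the overexpression effects. Leaving out a library leaves 1 in its group, which is then assumed to vary like the others. In Dux KD-Usp17le OE relative to Dux KD 0 members were called with no filter on low values, without the trend and robust options, and with only the compared groups fitted. Under limma-voom on the recovered reads, an alternative added after seeing the data, 8 members were called in Dux KD-Usp17le OE relative to WT, and scaling left 9 called in Dux KD-Usp17le OE relative to Usp17le OE-Dux KD. The median change of the series turned sign with scaling in Dux KD relative to WT (-0.11), Dux KD-Usp17le OE relative to Dux KD (0.023; limma-voom 0.031), Usp17le OE-Dux KD relative to WT (-0.089) and Dux KD-Usp17le OE relative to WT (-0.14; limma-voom -0.030). Of 128 called changes of 20 named members, 2517 recomputed values held 2371 with the same call, 138 with the direction but no call, and 8 reversed. Those 8 were, in Dux KD relative to WT, Zfp958 (-0.12 with scaling, -0.012 with limma-voom) and Zfp960 (-0.022 with scaling), and in Usp17le OE-Dux KD relative to WT, Zfp932 (-0.26 with scaling, -0.0059 with limma-voom), Zfp940 (-0.047), Zfp958 (-0.10) and Zfp960 (-0.11), each with scaling. The cause was not tested. The fit without Dux KD-Usp17le OE libraries, also added after seeing the data, kept the 85 calls it could give. Same-numbered libraries did not deviate together (correlations of -0.0513 to 0.0482 over 10 pairs of groups), so the numbers were taken as names only. With a replicate block 24 members were called in Usp17le OE relative to WT, 14 in Dux KD relative to WT and 13 in Dux KD-Usp17le OE relative to Usp17le OE-Dux KD, and the other counts were the same as without the block. The planned count tests (edgeR and DESeq2) were not run, as the deposited unit is TPM. At 8 to 7144 reads per member and library, small changes of the lowest members were not detectable.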
